A study of Mus musculus with 24 samples.

Results

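The liver response to a long Western diet in mice that breathed clean air was read from 6 of the 24 libraries of a study on diet and inhaled vinyl chloride (VC), an industrial monomer that the liver oxidises. The members are the 3 libraries of group m12_WD and the 3 of group m12_CD, and the comparison ran over all 4198 genes of 24421 in the deposited count table that passed the expression filter. All mice were male C57Bl/6J. Mice of m12_CD ate a low-fat control diet with 13% of it as fat, and mice of m12_WD a Western-style diet with 42%, with a feeding time of 12 months in the labels, although the treatment text gives 12 weeks of diet and then housing with or without it. Both groups spent 12 weeks in inhalation chambers with air and no VC, and were killed, fasted, after 9 more months of housing. Further groups, used only beside this comparison, ate the same diets and inhaled VC at about 0.85 ± 0.1 ppm for those 12 weeks (m12_CD+VC and m12_WD+VC), or were taken in clean air at 12 weeks (w12_CD and w12_WD). The labels give no age and do not say that each library is a separate animal, so the spread behind each p-value is that between these samples and may be technical. The RNA came from pieces of whole liver, so fewer cells of a type and less RNA per cell cannot be told apart.

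A Western diet combines fat, sugar and cholesterol and is a standard way to give mice a fatty liver. Hepatocytes that store fat burn part of it in mitochondria and peroxisomes, largely under the nuclear receptor PPAR-alpha, while dietary cholesterol and polyunsaturated fat damp the SREBP factors that drive sterol and fatty acid synthesis. In long-standing fatty liver, monocyte-derived macrophages that take up lipid gather around dying hepatocytes and carry osteopontin, GPNMB and MHC class II, and stellate cells lay down matrix.

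The libraries were shallow, with totals of 332126, 470374 and 386525 counts in m12_CD and 540432, 407177 and 962493 in m12_WD. The library m12_CD 1 stood apart: 24.99% of its counts fell on its 2 largest entries, against 10.5% to 16.6% in the other 5 libraries compared, and its TMM scaling factor was 0.70. Many entries of the table share exon sequence with a gene on the other strand. The sources used here do not give whether the counting used the strand, and the library kit named in the labels does not mark it. Reads from such a gene and its partner were therefore treated as not separable. Entries without such an overlap held 11.4%, 18.2% and 16.9% of counts in m12_CD 1 to 3 and 25.1%, 30.0% and 22.3% in m12_WD 1 to 3. The difference of 10.3 percentage points had an exact two-sided permutation p of 0.1, the smallest that 3 libraries against 3 allow. Its part in the results was not tested. All 6 libraries carried the transcripts of hepatocytes, with 311 to 3933 counts of Alb (albumin) and 88 to 1701 of Apoa2. Below, CPM is the count per 1000000 counts of a library after TMM scaling, values are means ± SD of 3 libraries a group, and a gene is called when edgeR's quasi-likelihood test gives a Benjamini-Hochberg adjusted p under 0.05 over all genes tested.

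On the Western diet 562 genes rose and 466 fell, so 1028 genes or 24.5% of those tested were called, 13.4% higher and 11.1% lower. An unadjusted p under 0.05 was reached by 1585. A gene at or near 0 counts in a group could pass the expression filter only through other groups. Shares of called members among those tested in a list are therefore not unbiased. Among the calls, 546 rose and 389 fell by at least 2-fold, 234 and 108 by at least 4-fold, and 58 and 40 by at least 8-fold. The median log2 fold change over all genes tested was 0.11, which RLE scaling raised by 0.39 and DESeq2 by 0.40. The split moved with the scaling: RLE gave 915 higher and 253 lower, DESeq2 562 and 169, and TMM applied separately to entries with and without an overlap 431 and 491. Without m12_CD 1 there were 645 calls, 292 higher and 353 lower, and without m12_WD 2 the higher calls numbered 364. Higher calls lay mostly in entries without an overlap, where 364 of 2026 rose and 135 fell (median 0.48). In entries with an overlap 195 of 2119 rose and 316 fell (median -0.16). Entries with predicted, clone or antisense names mostly fell where called, 137 lower against 15 higher of 386 tested.

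**Figure D1:**
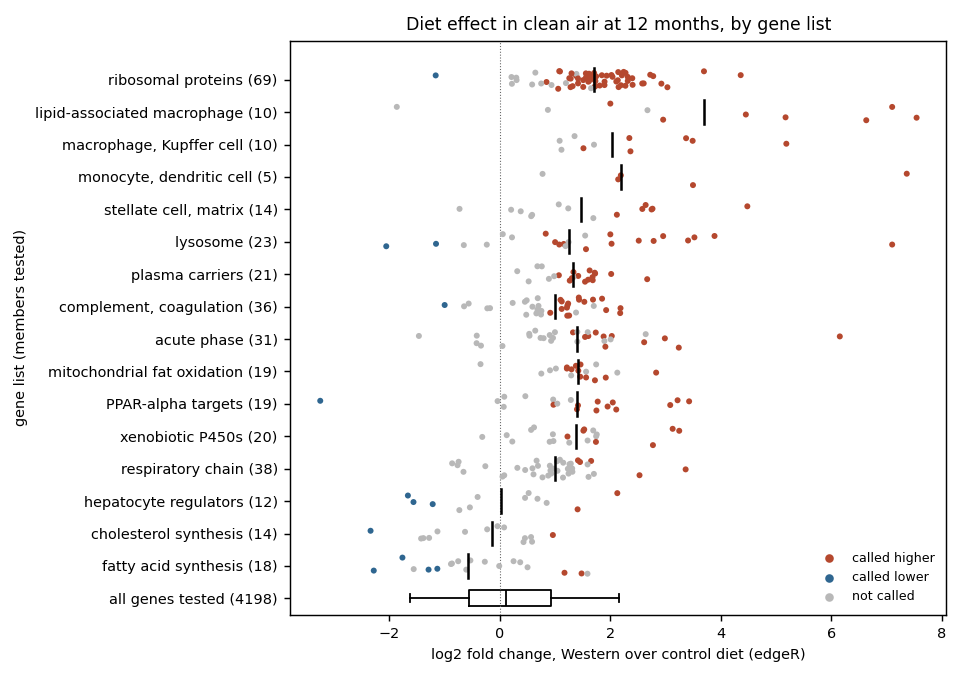
Log2 fold change (Western over control diet, edgeR) of every tested member of 16 gene lists, with the number tested in brackets; red points were called higher, blue lower and grey not called, and black ticks are list medians. The box at the bottom spans the quartiles of all 4198 genes with whiskers at the 5th and 95th percentiles and a median of 0.11, and 57 of 69 ribosomal protein genes stand to its right as red points.

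Promoters of the called genes were searched for letters that resemble sites of factors known in fatty liver. RefSeq promoters of GRCm38, 250 bases before to 50 after each start, were matched for 3214 of the 4198 genes tested, 441 of the higher and 347 of the lower calls. The kappa-B-like letters GGGNNNTTCC, which resemble a site of NF-kappaB, were found on either strand in 6.12% of higher and 5.48% of lower calls, 5.85% of genes tested and 5.52% of all 27025 promoters. The antioxidant response element core TGACNNNGCA was found in 2.04%, 3.17%, 2.86% and 2.99%. The direct repeat AGGNCANAGGNCA (DR1), the form that PPAR-alpha binds, was found in 0.68%, 0.288%, 0.56% and 0.381%, and the wider repeat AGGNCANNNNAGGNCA (DR4) in 0%, 0.576%, 0.28% and 0.259%. None of the 16 PPAR-alpha list genes or 17 mitochondrial oxidation genes with a promoter held the DR1 letters in this window. These shares were not tested, and a match is a string of letters and not a shown site. The 3 windows that follow were picked after the values were seen, from called genes with a match, with 25 bases on each side of a kappa-B-like match, 5′ to 3′ on the gene's strand and with the match in capitals.
B2m, chr2:122147536-122147595, plus strand: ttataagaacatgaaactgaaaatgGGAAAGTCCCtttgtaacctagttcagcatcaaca
Gpx1, chr9:108339000-108339059, plus strand: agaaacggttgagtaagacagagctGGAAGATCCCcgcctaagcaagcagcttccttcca
Lipa, chr19:34527494-34527553, minus strand: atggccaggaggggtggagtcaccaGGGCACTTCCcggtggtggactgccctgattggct
The B2m and Gpx1 matches read on the opposite strand, and the matches lie 126 to 117, 55 to 46 and 54 to 45 bases before the annotated start in that order.

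Genes of lipid-laden macrophages had the highest median rise among lists with 5 or more genes tested. Of 10 tested markers of lipid-associated macrophages 7 rose and 0 fell, with 9 values above 0. The lowest log2 fold change was -1.86, at an unadjusted p under 0.05 in edgeR but not called. The median was 3.71, or 3.26 with the 3 genes at 0 counts in m12_CD set to their lower bound. Spp1, which encodes the secreted matrix protein osteopontin, had 0, 1 and 2 counts in m12_CD 1 to 3 and 33, 81 and 129 in m12_WD 1 to 3. It rose from 2.94 ± 3.22 to 127 ± 61.9 CPM, with a log2 fold change of 5.18 ± 0.69 (SE) and an edgeR adjusted p of 3.08e-06, and the groups did not overlap. Gpnmb, a membrane glycoprotein of lipid-loaded macrophages, had 0 counts in every m12_CD library and 18, 18 and 36 in m12_WD, which is at least 11.8-fold higher taking 3 counts in the whole group as the floor. Lpl, the lipase that frees fatty acids from lipoproteins, likewise went from 0 counts to 46, 40 and 35, at least 19.8-fold. Ctss, a lysosomal protease that trims the MHC class II invariant chain, went from 0 to 22, 26 and 53, at least 16.6-fold. The 3 genes share the pattern of silence in every control library and clear signal in every Western one. With 0 counts in m12_CD they could pass the expression filter only through other groups. The other 3 that rose were Ctsd and Lipa, described with the lysosome, and Lgals3, the lectin galectin-3. The 16 listed markers, of which 0 were silent in all 6 libraries, summed to 6333 to 14130 CPM in m12_CD and 20560 to 21020 in m12_WD, nearly all from Apoe, which was not called. Cd36, a fatty acid receptor, was not called: it had 0, 3 and 1 counts against 15, 26 and 0 (adjusted p 0.0553), so its groups overlapped.

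General macrophage and antigen presentation genes rose beside them. Of 10 tested macrophage and Kupffer cell markers 6 rose and 0 fell (median 2.03), and the summed level of all 20 listed was 144.5 to 201.2 CPM in m12_CD and 735 to 954 in m12_WD. Lyz2, lysozyme of myeloid cells, had 1 count in each m12_CD library and 67, 103 and 31 in m12_WD, a ratio of 33.0 with a 95% counting interval of 11.1 to 161. Mpeg1, a pore-forming protein of macrophages, had 2, 3 and 0 counts against 30, 47 and 28 (log2 fold change 3.49, edgeR adjusted p 0.00202). C1qa, a chain of complement C1q made by macrophages, rose from 18.1 ± 11.9 to 98.9 ± 25.2 CPM. In all 3 genes every Western library exceeded every control library. Lyz2, at 1 count in each m12_CD library, could pass the expression filter only through other groups. Clec4f, which marks resident Kupffer cells, had 2, 12 and 10 counts against 41, 17 and 39 and was not called (log2 fold change 1.09, edgeR adjusted p 0.0936). Adgre1, the F4/80 antigen, held only 0, 2 and 0 against 5, 4 and 11 counts and was not tested.

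Of 5 tested monocyte and dendritic cell markers 4 rose, and all 4 belong to MHC class II. Cd74, the class II invariant chain, had 3, 8 and 3 counts in m12_CD and 84, 74 and 169 in m12_WD. It rose from 14.1 ± 5.03 to 168 ± 7.93 CPM, a log2 fold change of 3.50 ± 0.53 (SE) with an edgeR adjusted p of 2.02e-05. H2-Aa, a class II chain, went from 0 counts to 23, 36 and 60, at least 19.5-fold. With 0 counts in m12_CD it could pass the expression filter only through other groups, and only 5 of the 18 listed markers were tested. The 18 listed markers summed to 70.3 to 118.3 CPM in m12_CD and 452 to 576 in m12_WD, with 5 of them at 0 counts in all 6 libraries. Other leukocytes were barely seen. Of 11 neutrophil markers, 7 had 0 counts in all 6 libraries, 0 passed the filter, and their sum was 0 to 4.88 CPM in m12_CD and 9.17 to 38.1 in m12_WD. Of 23 T and NK cell markers 15 were at 0 throughout, and the sum was 46.3 to 83.0 CPM in m12_CD and 9.28 to 16.1 in m12_WD. The 1 tested, Zap70, a kinase of the T cell receptor, fell from 13, 19 and 26 counts to 0, 3 and 0. In m12_CD Zap70 was the whole of that sum, and each other marker of the list had 0 counts there. Cd3e, a chain of the T cell receptor complex, had 0, 2 and 1 counts in m12_WD. The macrophage counts held without m12_CD 1, with 7 of 11 macrophage, 7 of 10 lipid-associated and 4 of 5 monocyte and dendritic cell markers called. The part of a changed cell mixture in the other results was not tested.

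Matrix and epithelial keratin genes were higher as well. Of 14 tested stellate cell, fibroblast and matrix markers 6 rose and 0 fell (median 1.47), and the 37 listed summed to 639 to 924 CPM in m12_CD and 1186 to 1433 in m12_WD. Bgn, the matrix proteoglycan biglycan, had 0, 2 and 0 counts against 23, 26 and 56. Its ratio was 25.8 with a 95% counting interval of 6.97 to 216, and it could pass the expression filter only through other groups. Dcn, the related proteoglycan decorin, had 0, 6 and 2 counts against 36, 35 and 24 (log2 fold change 2.77, edgeR adjusted p 0.00862). Groups did not overlap for either. Col1a1, the main fibrillar collagen of scars, was too low to test, with 0 counts in m12_CD and 11, 3 and 47 in m12_WD, at least 10-fold by counts. Acta2, the actin of activated stellate cells, had 0, 0 and 1 counts against 4, 4 and 3.

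Of 17 listed markers of cholangiocytes and progenitors only 4 passed the expression filter, and all 4 rose: Spp1, Clu, Krt8 and Krt18. Without a filter 4 of 14 were called. Spp1, which is also in the lipid-associated macrophage list, could pass the filter only through groups where it was higher than in m12_CD. These calls therefore do not show a rise of that cell type. Krt18, one of the keratin pair that hepatocytes and bile duct cells share, had 11, 18 and 15 counts in m12_CD and 117, 165 and 251 in m12_WD. It went from 46.7 ± 2.41 to 286 ± 82.1 CPM, with a log2 fold change of 2.61 ± 0.33 (SE) and an edgeR adjusted p of 1.39e-06. Its partner Krt8 had 10, 12 and 16 counts against 97, 154 and 126 (log2 fold change 2.42), and overlaps Gm36026 on the other strand. Both genes were tight in the control group and several-fold higher in each Western library. The 17 listed markers summed to 280.3 to 387.6 CPM in m12_CD and 1233 to 1984 in m12_WD, and 4 were at 0 counts in all 6 libraries.

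**Figure D2:**
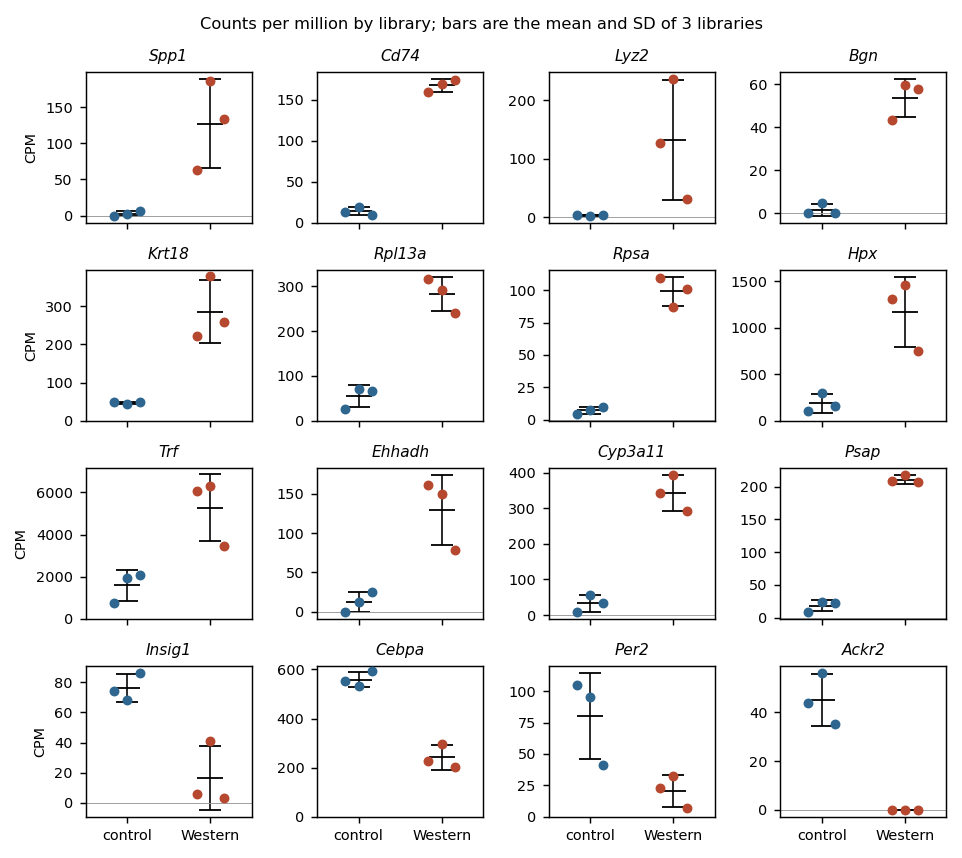
CPM in each library for 16 genes, control diet in blue and Western diet in red, with the mean and SD of 3 libraries a group; each panel has its own linear scale. The genes shown were selected after the values were seen. The groups do not overlap in any panel, for example 0 to 6.39 CPM of Spp1 on control diet against 62.4 to 186 on Western diet, and Ackr2 at 0 in all 3 Western libraries.

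Genes for cytosolic ribosomal proteins held more calls than any other list. Of 69 tested, 57 rose and 1 fell, against 13.4% and 11.1% of all genes, with a median log2 fold change of 1.70 and a range from -1.16 to 4.36. Together they took 3556, 5226 and 5286 CPM in m12_CD 1 to 3 and 9983, 11380 and 9858 in m12_WD 1 to 3. Rpl13a, of the large subunit, had 6, 29 and 21 counts against 168, 127 and 234, and rose from 54.7 ± 24.7 to 283 ± 38.8 CPM (log2 fold change 2.32, edgeR adjusted p 0.000102). Rps15, of the small subunit, had 10, 29 and 15 counts against 92, 123 and 214 (log2 fold change 2.02). Rpsa, which is also known as the laminin receptor, had 1, 3 and 3 counts against 58, 38 and 98 and rose from 7.09 ± 2.61 to 99.3 ± 11.4 CPM. The 3 genes lie apart from any opposite-strand gene, and none of them overlapped between the groups. The 1 that fell was Rpl23a, which overlaps Tlcd1 on the other strand and went from 738 ± 170 to 331 ± 27.4 CPM (log2 fold change -1.16, edgeR adjusted p 0.00282). Tlcd1 itself held 5 counts on control and 2 on Western diet, and DESeq2 did not call Rpl23a (adjusted p 0.0911).

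Of 53 ribosomal entries without an overlap 46 rose, and of the 16 with one 11 rose and 1 fell. The 7 tested entries that overlap a ribosomal gene on the other strand had a median log2 fold change of 0.13, with 0 higher and 1 lower. Without m12_CD 1 the count was 36 higher and 1 lower of 70. Ribosomal protein genes have many processed pseudogenes, and the counting could have split reads among copies.

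Plasma proteins made by hepatocytes rose with few exceptions among those called. Of 21 tested carrier proteins 14 rose and 0 fell (median 1.33), of 31 acute-phase proteins 11 rose and 0 fell (1.41), and of 36 complement and coagulation genes 17 rose and 1 fell (1.01). Trf, the iron carrier transferrin, had 172, 799 and 646 counts in m12_CD and 3208, 2748 and 3344 in m12_WD, from 1588 ± 725 to 5271 ± 1584 CPM. Its log2 fold change was 1.73 ± 0.36 (SE) with an edgeR adjusted p of 0.000724. Gc, the vitamin D binding protein, had 31, 157 and 133 counts against 783, 808 and 526 (log2 fold change 2.02). Each Western library exceeded each control library for both genes. Albumin did not follow: Alb had 3803 ± 2122 CPM on control and 5478 ± 2640 on Western diet, with overlapping groups (log2 fold change 0.52, edgeR adjusted p 0.351).

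Among the acute-phase genes, Hpx, the heme scavenger hemopexin, had 24, 123 and 49 counts in m12_CD and 691, 638 and 727 in m12_WD. It rose from 187 ± 101 to 1173 ± 375 CPM, a log2 fold change of 2.62 ± 0.40 (SE) with an edgeR adjusted p of 2.35e-05. Hp, the hemoglobin scavenger haptoglobin, rose from 788 ± 196 to 3223 ± 421 CPM (log2 fold change 2.03). C3, the central complement component, had 291, 729 and 566 counts against 3263, 2730 and 3166, and went from 1620 ± 299 to 5231 ± 1704 CPM (log2 fold change 1.69, edgeR adjusted p 0.000524). C4bp, a soluble complement inhibitor, had 3, 9 and 8 counts against 58, 55 and 53. None of these 4 overlapped between groups. C8g, the small chain of complement C8, was the 1 that fell, from 204 ± 45.4 to 101 ± 30.3 CPM. It overlaps no exon of another gene, but its adjusted p was above 0.05 without m12_CD 1 (0.0751), without m12_WD 2 (0.0883), under RLE (0.0981) and with DESeq2 (0.201).

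Of 17 tested apolipoprotein and lipoprotein assembly genes 7 rose and 0 fell (median 0.87). Apob, the structural protein of very low density lipoprotein, had 16, 91 and 59 counts against 332, 385 and 340 (log2 fold change 1.92, edgeR adjusted p 0.000336). Apoa2, a protein of high density lipoprotein, rose from 656 ± 256 to 1960 ± 182 CPM. Both were separated between groups. These plasma protein counts leaned on single libraries. Without m12_CD 1 the calls were 9 of 22 carriers, 4 apolipoprotein genes and 6 of 37 complement and coagulation genes, without m12_WD 2 the last were 7, and without m12_WD 1 the acute-phase calls were 7. Fewer were also called when entries without an overlap were tested alone. That setting gave 7 higher of 18 carriers and 7 of 21 acute-phase genes. It gave 4 higher and 1 lower of 12 apolipoprotein genes, and 4 higher and 1 lower of 29 complement and coagulation genes. C3 was not called there (edgeR adjusted p 0.0634).

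Fat oxidation genes rose. Of 19 tested genes of mitochondrial fatty acid oxidation and ketogenesis 11 rose and 0 fell (median 1.42), and of 19 in the PPAR-alpha list 11 rose and 1 fell (median 1.399). The 1 that fell was Cyp4a12a, a male-specific fatty acid hydroxylase (log2 fold change -3.25). Ppara itself had 0, 4 and 1 counts in m12_CD and 24, 32 and 22 in m12_WD (log2 fold change 3.09 ± 0.73 SE, edgeR adjusted p 0.00244). Ehhadh, the bifunctional enzyme of peroxisomal beta-oxidation, had 0, 5 and 8 counts against 85, 65 and 76 and rose from 12.6 ± 12.8 to 129 ± 44.6 CPM (log2 fold change 3.22, edgeR adjusted p 9.92e-05). Cyp4a10, a microsomal fatty acid hydroxylase, had 2, 5 and 3 counts against 108, 25 and 84. All 3 were higher in every Western library than in any control library. In mitochondria, Acadm, the medium-chain acyl-CoA dehydrogenase, rose from 26.6 ± 15.8 to 108 ± 29.5 CPM, and Decr1, which handles unsaturated fatty acids, had 1, 2 and 5 counts against 39, 26 and 53 (log2 fold change 2.83). Without m12_CD 1 the 2 lists gave 3 calls of 21 and 6 of 20. The mitochondrial list gave 5 without m12_WD 1 and 7 without m12_WD 2.

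Of 14 tested lipid droplet proteins and lipases 7 rose and 1 fell, and 12 had a log2 fold change above 0 (median 1.49), with 3 calls without m12_CD 1 and 4 without m12_WD 2. Ces1d, a carboxylesterase that hydrolyses stored triglyceride, had 3, 16 and 9 counts against 85, 62 and 164, from 27.0 ± 13.0 to 157 ± 13.8 CPM (log2 fold change 2.46). Plin2, which coats lipid droplets, had 2, 41 and 28 counts against 110, 113 and 93 (log2 fold change 1.42, edgeR adjusted p 0.0208). The Plin2 groups overlapped narrowly, and the call ended without m12_CD 1 (0.155), m12_WD 1 (0.0718) or m12_WD 2 (0.117). Cidec, which fuses droplets, fell from 142 ± 24.7 to 62.7 ± 23.8 CPM (log2 fold change -1.14, edgeR adjusted p 0.0118). Its groups did not overlap, but the call ended without m12_WD 2 (0.0612), under RLE (0.0640) and with DESeq2 (0.174). Scarb1, the receptor for high density lipoprotein, had 1, 4 and 4 counts against 23, 35 and 98 (log2 fold change 2.97, edgeR adjusted p 0.000148).

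Of 18 tested fatty acid synthesis genes 2 rose and 4 fell, beside 13.4% higher and 11.1% lower calls among all tested genes, with a median of -0.57 where all genes had 0.11. RLE gave 3 higher and 1 lower, and DESeq2 2 higher and 0 lower. Those that rose were Mlxipl, the carbohydrate sensor ChREBP (log2 fold change 1.48), and Acsl5, an acyl-CoA synthetase (1.17). Fads2 and Fads1, the desaturases of polyunsaturated fatty acids, fell from 449 ± 127 to 206 ± 78.9 CPM and from 169 ± 26.4 to 70.8 ± 55.9 CPM (log2 fold changes -1.13 and -1.29, edgeR adjusted p 0.0134 and 0.0262). Me1, malic enzyme, had 6, 18 and 16 counts against 11, 7 and 2 (log2 fold change -1.76, edgeR adjusted p 0.0309). Acss2, which activates acetate, had 1, 32 and 37 against 7, 6 and 14 (log2 fold change -2.28, edgeR adjusted p 0.0118). The groups of Acss2 overlapped through m12_CD 1, and those of Fads1, Fads2 and Me1 did not. Scd1, the stearoyl-CoA desaturase, varied within both groups, with 22, 498 and 880 counts against 249, 766 and 236, and was not called (log2 fold change -0.75, edgeR adjusted p 0.559). Insig1, a sterol sensor that restrains SREBP and is itself an SREBP target, fell from 76.3 ± 9.13 to 16.7 ± 21.3 CPM (log2 fold change -2.34, edgeR adjusted p 0.00743). It was the only lower call of 14 tested cholesterol synthesis genes, and Fdft1, squalene synthase, was the only higher one (median -0.13). Fdft1 overlaps Ctsb on the other strand, which rose too, so its rise cannot be assigned to Fdft1 alone. DESeq2 did not call Insig1 (adjusted p 0.137). The list had 1 call without m12_CD 2 or m12_CD 3 and 4 without m12_WD 2, of which 3 were lower.

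The 4 lower calls of the fatty acid synthesis list depended on single libraries and on scaling. Without m12_CD 3 only 1 gene of 19 was called, none lower, and the list's median was 0.21. Adjusted p-values then were 0.0521 for Fads2, 0.0544 for Fads1, 0.0861 for Me1 and 0.0907 for Acss2. Without m12_WD 1 there were 3 calls, with Fads1 at 0.0987 and Fads2 at 0.0649. Without m12_WD 3 Fads1 was at 0.0825 and Me1 at 0.114, and without m12_CD 2 Me1 was at 0.0606. RLE gave 3 higher and 1 lower, and DESeq2 2 higher and 0 lower.

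Of 5 tested entries that overlap a fatty acid synthesis gene on the other strand 3 fell and 0 rose (median log2 fold change -2.83), and of 3 that overlap a cholesterol synthesis gene 2 fell and Ctsb rose (median -1.84), each entry counted under its largest overlap. The 5 entries described next, all lower, were chosen after their values were seen. Acss2os, which overlaps Acss2, had 733, 1662 and 2162 counts in m12_CD and 139, 110 and 265 in m12_WD. It fell from 4722 ± 1937 to 263 ± 10.5 CPM, a log2 fold change of -4.17 ± 0.48 (SE) with an edgeR adjusted p of 2.41e-07. Gss, which encodes glutathione synthetase and also overlaps Acss2, had 55, 88 and 58 counts against 22, 16 and 14 (log2 fold change -2.83, edgeR adjusted p 0.000227). A330041J22Rik, which overlaps Me1, fell from 2118 ± 1488 to 150 ± 69.2 CPM (log2 fold change -3.84). 4930483K19Rik, which overlaps the lanosterol synthase gene Lss, had 407, 287 and 300 counts against 39, 47 and 79 (log2 fold change -3.71, edgeR adjusted p 2.31e-07). Lss itself went from 56.0 ± 11.6 to 76.8 ± 11.1 CPM and was not called (edgeR adjusted p 0.341). Fads3, a desaturase-like gene that lies 2655 bases from Fads2 on the other strand, had 1629, 3857 and 2949 counts against 98, 610 and 179. It fell from 8652 ± 1314 to 590 ± 701 CPM (log2 fold change -3.89, edgeR adjusted p 7.47e-05). None of these 5 entries overlapped between the groups. The naming rule required this of entries named for their fold change, such as Fads3 and 4930483K19Rik, so there it adds no support. Acss2os held more counts than Acss2 in every library compared, and the reason was not tested. Because reads of a gene and its partner were treated as not separable, which strand these counts come from cannot be stated.

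**Figure D3:**
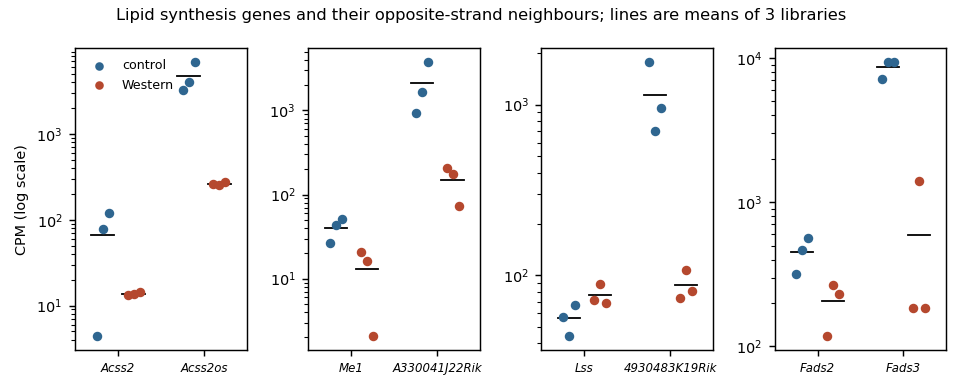
CPM on a log scale in each library for 4 lipid synthesis genes (left in each panel) and an entry on the other strand that overlaps them or, for Fads3, lies near (right), with control diet in blue, Western diet in red and a line at each mean of 3 libraries. The right-hand entries are far lower on Western diet in all 4 panels, as for Acss2os at 4722 against 263 CPM, while Lss itself is slightly higher.

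Bile acid and sterol export genes gave 5 higher and 1 lower call of 21 tested (median 0.55). Among all genes tested 13.4% were called higher and 11.1% lower. Cyp7a1, the rate-limiting enzyme of bile acid synthesis, had 6, 17 and 21 counts against 33, 14 and 65 and overlapped between groups (log2 fold change 0.26, edgeR adjusted p 0.746). That small difference turned negative without m12_CD 1 (-0.051), under separate scaling of the overlap classes (-0.0908) and in entries without an overlap alone (-0.068). Cyp8b1, which makes cholic acid, fell from 97.5 ± 7.05 to 39.3 ± 14.3 CPM (log2 fold change -1.27, edgeR adjusted p 0.00841), a call lost under RLE (0.0519) and DESeq2 (0.146). Ackr2, a chemokine scavenging receptor whose gene lies 3282 bases from Cyp8b1 on the other strand, had 10, 23 and 11 counts in m12_CD and 0 in every m12_WD library, at least 29.8-fold lower. Abcg5, which with its neighbour Abcg8 pumps sterols into bile, had 0, 3 and 4 counts against 16, 15 and 64 (log2 fold change 2.56, edgeR adjusted p 0.00949). The call ended without m12_CD 1 (0.0561) and without m12_WD 3 (0.0506). Abcg8 overlaps it on the other strand and had 1253 ± 136 against 832 ± 42.1 CPM, not called (edgeR adjusted p 0.159).

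Enzymes of foreign compound metabolism rose where called. Of 20 tested xenobiotic P450s and their regulators 7 rose and 0 fell (median 1.39). Cyp3a11, the main inducible P450 of the mouse liver, had 2, 23 and 11 counts against 181, 172 and 284 and rose from 33.3 ± 23.7 to 343 ± 50.9 CPM (log2 fold change 3.25 ± 0.51 SE, edgeR adjusted p 3.13e-05). Cyp2e1, which oxidises VC, rose from 603 ± 325 to 1756 ± 581 CPM (log2 fold change 1.53, edgeR adjusted p 0.0111). Its groups did not overlap, but the call ended without m12_CD 1 (0.103) and without m12_WD 1 (0.0672). Aldh1a1, a cytosolic aldehyde dehydrogenase, rose from 35.2 ± 25.02 to 186 ± 84.6 CPM, and Ephx1, the microsomal epoxide hydrolase, had 0, 12 and 13 counts against 74, 74 and 121 (log2 fold change 2.50). Gpx1, the glutathione peroxidase whose promoter window is shown above, had 13, 28 and 25 counts against 128, 168 and 304 (log2 fold change 2.18, edgeR adjusted p 7.75e-05), and Fth1, the ferritin heavy chain, rose from 217 ± 115 to 774 ± 195 CPM. Without m12_CD 1, and likewise without m12_WD 1, 3 P450 list members were called. Paralogs of the P450 and glutathione transferase families could have exchanged reads.

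Of 23 tested lysosomal genes 14 rose and 2 fell (median 1.25), with 9 calls without m12_CD 1 and 10 without m12_CD 3. The summed level of the 38 listed genes went the other way, with 8475, 10640 and 16680 CPM in m12_CD and 7635, 6903 and 7632 in m12_WD, and most of that sum was Ctsa, one of the 2 that fell. Psap, the precursor of the saposins that present lipids to lysosomal enzymes, had 2, 10 and 7 counts against 110, 95 and 200. It rose from 18.5 ± 8.49 to 211 ± 6.30 CPM, a log2 fold change of 3.41 ± 0.51 (SE) with an edgeR adjusted p of 1.69e-05. Ctsd, an aspartic protease of lysosomes and a marker of the lipid-associated macrophage list, rose from 48.0 ± 18.3 to 197 ± 25.3 CPM. Lgmn, the asparaginyl protease legumain, had 0, 4 and 1 counts against 31, 45 and 28, and Lipa, the acid lipase that frees cholesterol and fatty acids (promoter window above), 0, 4 and 2 against 33, 34 and 13 (log2 fold changes 3.53 and 2.96). None of these overlapped between the groups. The 2 that fell were Ctsa and Mcoln1, a lysosomal ion channel (log2 fold change -2.05, with overlapping groups). Ctsa, which protects other lysosomal enzymes and overlaps Pltp on the other strand, fell from 10690 ± 4162 to 4806 ± 720 CPM (log2 fold change -1.15, edgeR adjusted p 0.0109). Its adjusted p was 0.0804 without m12_CD 3 and 0.0728 with DESeq2. Many of these enzymes are abundant in macrophages, whose markers rose in the same libraries, and the part of those cells was not tested.

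Genes of the respiratory chain were called seldom. Of 38 tested 5 rose and 0 fell (median 1.01), a share near the 13.4% of all genes, although 33 of the 38 had values above 0. Atp5b, the catalytic subunit of ATP synthase, rose from 71.7 ± 26.2 to 233 ± 37.3 CPM (log2 fold change 1.66, edgeR adjusted p 0.000856). Atp5h, a subunit of its stalk, had 1, 5 and 5 counts against 40, 27 and 63. Groups did not overlap for either. Leaving out m12_WD 3 gave 13 calls, m12_WD 2 gave 2 and m12_CD 1 gave 3. RLE gave 11 calls.

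Of 12 tested regulators and marker genes of hepatocyte identity 2 rose and 3 fell (median 0.03), beside 13.4% higher and 11.1% lower calls among all tested genes. There were 3 calls without m12_CD 3 or without m12_WD 2, and DESeq2 gave 2 higher and 1 lower. Cebpa, a transcription factor of the mature hepatocyte that overlaps Gm45091 on the other strand, had 126, 218 and 186 counts against 120, 130 and 195 and fell from 559 ± 32.0 to 242 ± 50.3 CPM. Its log2 fold change was -1.21 ± 0.28 (SE) with an edgeR adjusted p of 0.00205, and DESeq2 gave 0.0758. Asgr1, a receptor for desialylated glycoproteins, rose from 46.5 ± 13.0 to 125 ± 13.0 CPM (log2 fold change 1.41, edgeR adjusted p 0.0101), with 0.0652 without m12_CD 1 and 0.0512 without m12_CD 2. Both were separated between the groups. Per2, a repressor of the circadian clock, had 24, 39 and 13 counts against 12, 14 and 7 (log2 fold change -2.05, edgeR adjusted p 0.00357, DESeq2 0.0589), and of the other 5 tested clock genes 1 rose. The hour of killing is not in the labels. Nags, whose product activates the urea cycle and whose entry overlaps Gm11586, fell from 245 ± 46.4 to 79.5 ± 21.7 CPM (log2 fold change -1.63), and it was the only lower call of 33 urea cycle and amino acid genes, of which 5 rose. The higher calls are near the 13.4% of all genes tested. That list had 1 call without m12_CD 1, 2 without m12_WD 2, and 3 without m12_CD 2 or m12_WD 1. Entries without an overlap alone gave 1 higher and 0 lower of 26. Separate TMM of the overlap classes gave 2 higher and 1 lower (median 0.02).

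Major urinary proteins, pheromone carriers of male mice encoded by near-identical genes, went apart. Of 8 tested 1 rose and 2 fell, beside 13.4% higher and 11.1% lower calls among all genes tested. Mup11 had 11, 8 and 10 counts in m12_CD and 0 in m12_WD, at least 19.7-fold lower, and Mup14 had 4, 6 and 7 against 0, at least 11.5-fold lower. Mup20, the male pheromone darcin, had 4, 44 and 24 counts against 105, 229 and 177 (log2 fold change 2.08, edgeR adjusted p 0.0103), with 0.0710 without m12_CD 1 and 0.108 without m12_WD 2. Reads of these copies may have been split by the counting, so single members are uncertain.

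Stress and antigen genes rose in part. Of 17 tested genes of the unfolded protein and integrated stress response 8 rose and 1 fell (median 1.33), with 4 to 5 calls when any of m12_CD 1 to 3, m12_WD 1 or m12_WD 2 was left out. Calr, the endoplasmic reticulum chaperone calreticulin, rose from 490 ± 89.5 to 1236 ± 132 CPM (log2 fold change 1.33, edgeR adjusted p 0.000723). Its membrane-bound relative Canx, calnexin, fell from 381 ± 82.6 to 198 ± 22.8 CPM (log2 fold change -0.94, edgeR adjusted p 0.0157). The Canx call ended without m12_CD 2 (0.0546), under RLE (0.159) and with DESeq2 (0.296). Hspa8, the constitutive cytosolic chaperone, had 4, 40 and 27 counts against 252, 201 and 252 (log2 fold change 2.50), and Hsph1, its nucleotide exchange factor, went from 0 counts to 27, 15 and 12, at least 8.85-fold. Of 16 tested interferon and antigen presentation genes 7 rose and 0 fell (median 0.83), with 3 or 4 calls when any of m12_CD 1 to 3, m12_WD 1 or m12_WD 2 was left out. B2m, the light chain of MHC class I and the first promoter window shown, had 9, 58 and 28 counts against 196, 184 and 225 (log2 fold change 1.87, edgeR adjusted p 0.000764). Every Western library exceeded every control library in each of the genes named here as risen.

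Some of the strongest single changes lay outside the lists. AV064505 on chromosome 9 (7669429 to 7695631, minus strand, GRCm38) had 0, 1 and 0 counts in m12_CD and 130, 80 and 143 in m12_WD. It went from 0.81 ± 1.41 to 192 ± 49.8 CPM, a ratio of 174 with a 95% counting interval of 31.0 to 6876 and an edgeR adjusted p of 5.82e-08. Mmp7, the gene on its other strand, had 0 counts in all 6 libraries. Maml1, a coactivator of Notch that overlaps Gm26542, had 25, 35 and 34 counts against 8, 1 and 2 (log2 fold change -3.99, edgeR adjusted p 1.63e-06). Zfp668, a zinc finger gene that overlaps Zfp646, had 5, 13 and 16 counts against 1, 0 and 0, a ratio of 69.1 with a 95% counting interval of 11.6 to 2810. The groups of all 3 did not overlap, but the rule that named them required this, so it adds no support.

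Of 4 tested proliferation genes, 4 fetal and tumour-associated genes, 7 genes of the m6A RNA methylation machinery and 1 gene of the p53 and senescence list, edgeR called 0, with 0, 2, 2 and 0 at an unadjusted p under 0.05. DESeq2 called 0 of them, while limma-voom and the replicate block each gave 1 lower fetal gene. RLE gave 2 higher m6A genes, and TMM scaling of overlapping and other entries separately 1 lower gene each in the proliferation and fetal lists. Entries without an overlap alone gave 1 lower m6A and 1 lower fetal gene. Without a filter there were 2 lower calls of 19 m6A genes, 1 higher of 24 fetal and 1 higher of 25 p53 genes. Leaving out single libraries called 1 to 3 m6A genes, and without m12_WD 3 there was 1 lower call each in the fetal and p53 lists. Of 10 tested repair genes Ercc2, a helicase of excision repair, rose (log2 fold change 2.48), a call absent without m12_CD 1. Among all genes tested 13.4% were called higher. Mki67, the proliferation marker, had 0, 0 and 1 counts against 1, 1 and 3, and Gpc3, a tumour antigen, had 0 in all 6 libraries, which allows 3 counts a library, or 13.1 to 3.09 CPM depending on depth. Afp, alpha-fetoprotein, had 126 ± 15.1 against 59.5 ± 27.8 CPM and was not called (log2 fold change -1.05, edgeR adjusted p 0.0667). Tk1, thymidine kinase, overlaps Afmid and was not called either (log2 fold change -0.51, edgeR adjusted p 0.306). Fgf21, a fasting and stress hormone of the liver, had 4, 7 and 8 counts against 8, 1 and 40 and was not tested.

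The same diet contrast was also available after VC and at 12 weeks, in libraries that are not shared. The difference between the diet effect in clean air and that after VC passed the test for 412 genes, 9.81% of those tested, and the difference between 12 months and 12 weeks for 280 genes, or 6.67%. Of the 562 genes called higher in clean air at 12 months, 216 also passed the first and 124 the second, all in the same direction as the diet call. Of the 466 called lower, 115 and 130 did. The rule that selected these genes used the clean-air contrast at 12 months, which is part of both differences, so these counts are a description. The higher calls had a median log2 fold change of -0.09 after VC and -0.18 at 12 weeks, and the lower calls -0.14 and -0.08. Ribosomal protein genes had medians of 1.70 in clean air, 0.16 after VC and -0.06 at 12 weeks. Mitochondrial fat oxidation genes had 1.42, -0.65 and -0.43, and lipid-associated macrophage markers 3.71, 0.72 and 0.19. Fatty acid synthesis genes had -0.57, -1.98 and 0.03. The median over all genes tested is given only for clean air at 12 months (0.11). The list medians after VC and at 12 weeks thus have no such value beside them.

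Single genes differed in how far the diet effect held elsewhere. Cd74 was higher on Western diet after VC too (log2 fold change 1.99, edgeR adjusted p 0.0280), as was AV064505 (5.08, edgeR adjusted p 1.62e-05), and for neither did the difference between the diet effects pass the test. Acss2os and 4930483K19Rik were lower after VC (log2 fold changes -2.48 and -2.52, edgeR adjusted p 0.00253 and 0.00206) and had values of -0.47 and 0.16 at 12 weeks. For both the 12-month and 12-week effects differed (edgeR adjusted p 0.000742 and 0.000172). Ehhadh had log2 fold changes of -0.75 after VC and -0.51 at 12 weeks, and its effect in clean air at 12 months differed from each (edgeR adjusted p 0.00308 and 0.00977).

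Both counts of differences leaned on single libraries. The count against VC was 137 without m12_CD 1, 121 without m12_CD+VC 2, 265 without m12_WD 1, 179 without m12_WD 2, 626 without m12_WD 3, 243 without m12_WD+VC 1 and 87 without m12_WD+VC 3. The count against 12 weeks was 160 without m12_CD 1, 125 without w12_CD 1, 149 without w12_CD 2, 184 without w12_WD 1 and 44 without w12_WD 2. The library w12_WD 3 held only 607 counts, and without it the latter count was 261.

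**Figure D4:**
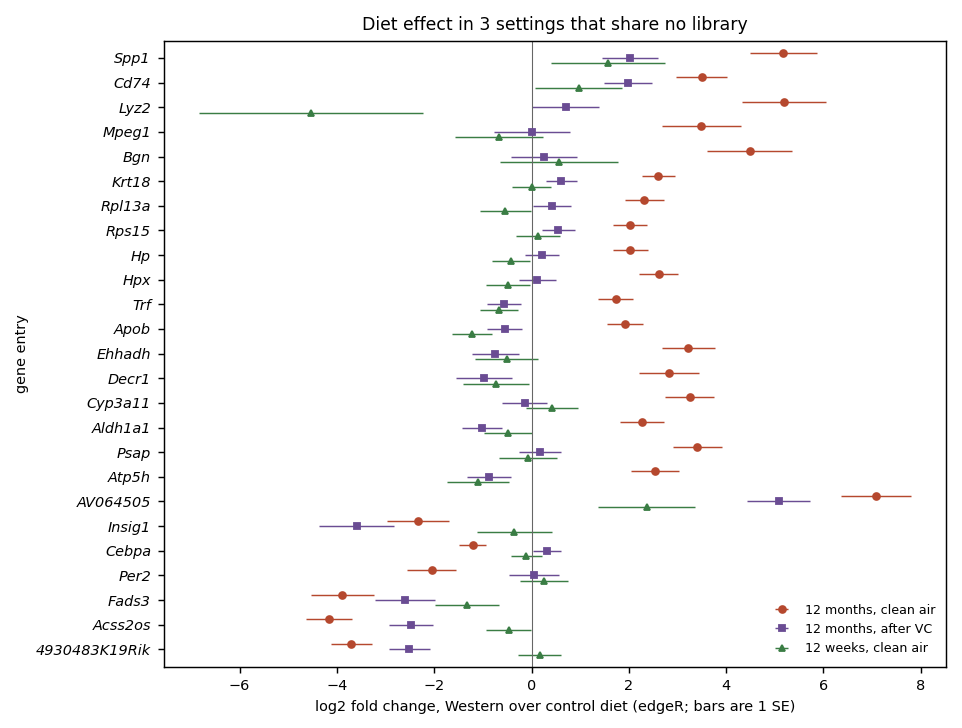
Log2 fold change of Western over control diet for 25 entries in clean air at 12 months (red circles), after VC at 12 months (purple squares) and in clean air at 12 weeks (green triangles), with bars of 1 SE from edgeR. Hpx is at 2.62 in clean air, 0.12 after VC and -0.48 at 12 weeks, AV064505 is at 7.08, 5.08 and 2.37, and Acss2os at -4.17, -2.48 and -0.47.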

How the data were processed

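Per the labels' protocols, libraries were prepared from Trizol-extracted liver RNA after removal of ribosomal RNA, with a kit that does not mark strand. The submitters' processing notes name HISAT2 2.1.0, Trimmomatic 0.38, the build mm10 and HTSeq 0.11.2, with no role for each. The annotation and the strand setting are unknown here. The authors deposited raw counts per gene and, for each sample, log2 values of scaled counts, which served only to check the column map. Symbols were placed on GRCm38 and 98.13% of entries matched. Counts were filtered with filterByExpr and TMM-scaled, and a quasi-likelihood model of 24 libraries in 8 groups was fitted with edgeR 4.0.16 in R 4.3.3. Called genes have a Benjamini-Hochberg adjusted p under 0.05. On simulated counts with known changes the model recovered 10 of 60 genes changed 2-fold, 45 of 73 changed 4-fold and 59 of 67 changed 8-fold. It called 5 of 3998 unchanged genes. Most 2-fold changes were thus missed there and may be missed here. Apart from those changes, the simulation gave all libraries the same gene means. The changes were of random direction and far fewer than the calls here, so both rates may differ in the real data. Intervals are 95% and floors are 3 counts, covering counting error only. Single values were tested by exact permutation.

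Alternatives were RLE, no filter, DESeq2 1.42.0, limma-voom (limma 3.58.1), the compared groups alone, a replicate block, separate TMM of overlap classes, entries without an overlap alone, all libraries but w12_WD 3, and leaving out each library. The comparison, lists and tests were chosen with earlier results of these data known. The naming rule took up to 12 genes per direction with the largest fold change among calls without group overlap and a mean of at least 20 CPM, up to 6 with predicted or clone names, up to 4 called members per list and direction with the smallest adjusted p, fixed genes, and opposite-strand partners. The text gives a selection of these made after the values were seen, and Lss and Abcg8 stand as partners. Some genes are not reported here. Pairs of replicates differed by more than sampling noise.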

Additional observations from a re-analysis of the deposited data

Results flagged for a closer look

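The diet effect in clean air at 12 months differed by test from the diet effect after VC for 52 of the genes named above, with edgeR adjusted p from 0.00292 to 0.0496 over all genes tested. Values are differences of log2 fold changes, clean air minus VC. The difference was 6.604 for Hsph1, 6.41 for Lpl, 5.75 for Ctss, 5.70 for H2-Aa, 4.49 for Lyz2, 4.22 for Bgn, 3.99 for Lipa and 3.97 for Ehhadh. Next came 3.81 for Decr1, 3.70 for Rpsa, 3.51 for Ppara, 3.49 for Mpeg1, 3.40 for Atp5h, 3.39 for Cyp3a11, 3.33 for Cyp4a10 and 3.29 for Aldh1a1. Smaller positive differences were 3.24 for Psap, 3.15 for Spp1, 3.12 for Abcg5, 3.08 for Mup20, 2.94 for Ces1d, 2.91 for Plin2, 2.86 for Alb and 2.85 for Gc. It was also 2.74 for Scarb1, 2.65 for Acadm, 2.58 for C4bp, 2.53 for Atp5b, 2.49 for Hpx, 2.47 for Apob, 2.40 for Gpx1 and 2.31 for Hspa8. Positive values were further 2.29 for Trf, 2.25 for Apoa2, 2.20 for B2m, 2.20 for Krt8, 2.13 for Cyp2e1, 1.997 for Krt18 and 1.90 for Rpl13a. The least positive were 1.86 for Fth1, 1.81 for Ctsd, 1.81 for Hp, 1.72 for Asgr1, 1.57 for C3 and 1.47 for Rps15. It was negative, with -5.53 for Zfp668, -4.92 for Mup11, -4.83 for Ackr2, -3.12 for Zap70, -2.44 for Maml1, -1.62 for Nags and -1.53 for Cebpa.

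The diet effect in clean air also differed by test between 12 months and 12 weeks for 48 named genes, with edgeR adjusted p from 0.000172 to 0.0417. Here values are differences of log2 fold changes, 12 months minus 12 weeks. The time difference was 9.72 for Lyz2, 7.20 for H2-Aa, 6.998 for Hsph1, 6.71 for Ctss, 4.89 for Cyp4a10, 4.16 for Mpeg1, 3.88 for Lipa and 3.73 for Ehhadh. Then followed 3.64 for Atp5h, 3.57 for Ppara, 3.57 for Decr1, 3.49 for C4bp, 3.48 for Psap, 3.39 for Mup20, 3.25 for Scarb1 and 3.13 for Apob. Smaller ones were 3.10 for Hpx, 2.96 for Hspa8, 2.86 for Rpl13a, 2.85 for Acadm, 2.83 for Gc, 2.83 for Cyp3a11, 2.77 for Aldh1a1 and 2.62 for Plin2. Further positive values were 2.61 for Krt18, 2.45 for Hp, 2.40 for Trf, 2.40 for Asgr1, 2.33 for Apoa2, 2.33 for C3 and 2.27 for B2m. The last positive ones were 2.12 for Gpx1, 2.08 for Atp5b, 1.88 for Rps15, 1.78 for Fth1 and 1.38 for Calr. Negative time differences were -6.96 for Ackr2, -6.22 for Mup11, -5.78 for Zfp668, -4.09 for Maml1, -3.87 for 4930483K19Rik, -3.70 for A330041J22Rik, -3.69 for Acss2os and -3.62 for Zap70. Closest to 0 on that side were -2.31 for Per2, -2.06 for Fads2, -1.94 for Abcg8 and -1.73 for Nags. These genes were mostly picked for their change in clean air at 12 months, which is part of each difference, so the number is no independent support.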

How the results depend on the processing

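The total of 1028 calls was 1168 with RLE, 731 with DESeq2, 914 with limma-voom, 840 without a filter, 922 with separate TMM and 1035 (519 higher, 516 lower) without w12_WD 3. It was 610 (313 higher, 297 lower) with the compared groups alone and 369 (165 and 204) in entries without an overlap alone. Leaving out 1 of the 6 compared libraries gave 645 to 1069 calls, 292 to 581 higher and 353 to 488 lower. RLE moved the split to 915 and 253, and DESeq2 the lower calls to 169. The replicate numbers did not pair the samples, with correlations of -0.12, 0.13 and -0.18 for the same number, and the replicate block gave 1035 calls, 553 and 482.

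The 412 differences from VC became 232 without a filter, 252 with DESeq2, 255 with separate TMM, 141 without overlap entries, and 87 to 626 leaving out 1 library. The 280 differences from 12 weeks became 162 with DESeq2, 186 with the compared groups alone, 86 without overlap entries, and 44 to 358 leaving out 1 library. With the replicate block they were 442 and 322. The difference in counts outside overlaps ranged from 8.18 to 12.0 percentage points.

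Of 77 called genes named and followed through the alternatives, 64 stayed called whichever library was left out, 70 with RLE, 64 with DESeq2, 77 with limma-voom and 77 with the replicate block. Cyp7a1 reversed to -0.0908 with separate TMM and -0.068 in entries without an overlap alone, and ranged from -0.051 (without m12_CD 1) to 0.58 leaving out 1 library. Scd1 ranged from -1.98 to 0.21 (without m12_CD 3). Causes were not tested. At this depth 3 counts are 3.09 to 13.1 CPM, which limits genes near that level.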

Other observations

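Of 18 tested genes of aldehyde, epoxide and alcohol clearance 7 rose and 0 fell (median log2 fold change 0.94), with 4 calls without m12_CD 1. Adh1, an alcohol dehydrogenase, was among them (log2 fold change 1.96). Of 14 tested genes of glutathione synthesis and transfer 6 rose and Gss fell (median 1.36), with 4 calls without m12_CD 1 or m12_WD 2. Of 11 genes of glucuronidation and sulfation 5 rose (0.87), with 2 without m12_CD 1 or m12_CD 3 and 3 without m12_WD 1. Of 14 NRF2 target and iron storage genes 6 rose and 0 fell (0.997), among them Prdx1, a peroxiredoxin (log2 fold change 1.99). Among all genes tested 13.4% were called higher. The list gave 4 calls of 16 without m12_CD 1, m12_CD 2 or m12_WD 1. It gave 3 of 14 with separate TMM (median 0.55), 2 of 12 in entries without an overlap alone and 2 of 10 with the compared groups alone.

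The counts that follow stand beside 13.4% higher and 11.1% lower calls among all genes tested. Of 24 tested genes of sugar metabolism 5 rose and Pdha1, a subunit of pyruvate dehydrogenase, fell (median 0.75). There was 1 call without m12_CD 1 and there were 3 without m12_WD 1. Of 14 genes of fatty acid uptake 6 rose (1.15), with 2 without m12_CD 1 or m12_WD 1 and 3 without m12_CD 3 or m12_WD 2. Of 10 genes of triglyceride and phospholipid synthesis 2 rose, Agpat2 and Agpat3, with 1 without m12_CD 1 or m12_CD 3. Of 5 pericentral markers Cyp2e1 and Glul rose, with 0 calls without m12_CD 1 or m12_WD 1 and 1 without m12_CD 2 or m12_WD 2. Of 8 periportal markers Hsd17b13 rose, with 0 calls without m12_CD 1 or m12_WD 2 and 2 without m12_WD 1. The periportal share called higher is near that of all genes tested. Of 14 hepatokine genes 4 rose (1.28), among them Fetub, fetuin-B (log2 fold change 1.68). Of 8 endothelial markers Stab2 and Fabp4 rose (log2 fold changes 2.11 and 4.61), and the 24 listed summed to 735 to 950 CPM in m12_CD and 750 to 989 in m12_WD.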
